A study of Mus musculus with 64 samples.

Results

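The samples described here were lymphomas of PiggyBac (PB) mice taken from 2 sites of the body, the spleen and the mesentery. Members were chosen by their labels alone, with genotype IMPB and tissue SPLEEN (6 samples, called spleen 1 to 6) or MES MASS (9 samples, called mass 1 to 9). They made up 15 of the 30 PB tumours and 15 of all 64 samples of the series. Each sample name carried its own animal code. All of these mice carried a constitutive PB transposase at Rosa26 and an ITP array of transposon copies, on a mixed C57BL/6, 129Sv and FVB background. Transposition therefore ran in every tissue, also outside the lymphoma. The state of Blm in the PB mice and the ages of the animals are not given in the sources used here. The cohort was described as diffuse large B cell lymphoma, and 12 tails of PB mice served as normal tissue. The other 15 PB tumours came from lymph nodes and a cervical mass. Insertion tables hold no expression values, so tissue labels could not be checked against marker genes, and a tumour sample could contain any amount of normal tissue of its site.

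A PB transposon is cut out of its array and inserted at the motif TTAA, in either strand. Most insertions have no effect on the cell, but an insertion that activates an oncogene or breaks a tumour suppressor can let its cell expand, and the expanded clone then carries that insertion in many cells. B cell lymphomas can arise in lymphoid tissue at different sites, among them the white pulp of the spleen and the lymph nodes of the mesentery, which drain the gut. The ends of each transposon were read together with the flanking genome (QiSeq, based on splinkerette PCR). Here an insertion was counted 1 time per sample and TTAA, whatever its number of reads. Insertions on sex chromosomes and on chromosome 14, which held the most insertions per Mb, were left out. The 15 samples then held 74587 insertions, 29537 in spleens and 45050 in masses.

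The sites that carried the most reads in the 6 spleens were all different, and 4 of them lay in genes. Their sequence is shown to give the position of each spleen's most covered (leading) insertion. Each line has the 10 bases before and after the motif in the GRCm38 (mm10) plus strand, with TTAA in capitals.
spleen 1, Nck1, chr9:100506096-100506099: tttctgactcTTAAgagacttcta
spleen 2, outside genes, chr3:47122662-47122665: aataattaacTTAAgtacatcatt
spleen 3, Smc4, chr3:69007083-69007086: ctaggtttctTTAAgtaacatccc
spleen 4, Mtdh, chr15:34141337-34141340: ttacagttctTTAAaagttctaaa
spleen 5, Smad5, chr13:56720826-56720829: ctttggcataTTAAgagccctctg
spleen 6, outside genes, chr6:125500770-125500773: agctctctctTTAAaaatcccatt
Nck1 encodes an adaptor of receptor signalling, Smc4 a condensin subunit, Mtdh metadherin and Smad5 a transducer of BMP signals. The sites in Nck1, Smc4 and Smad5 were intronic and that in Mtdh was in an exon outside the coding sequence. The leading site took 3.30% of the reads of spleen 1, 16.8% in spleen 2, 5.16% in spleen 3, 2.10% in spleen 4, 3.93% in spleen 5 and 2.47% in spleen 6. The site of spleen 2 was 221880 bp from the nearest annotated gene, and the next site of that sample took only 2.50%. None of these 4 genes held a leading site in a mass, but with 1 leading site per sample few genes could. No share over all genes was set beside this count.

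Fas, which encodes a death receptor, lies at chr19:34290659-34327770 on the plus strand. It held 1 of the 50 most covered insertions in 8 of 9 masses and in 1 of 6 spleens. The strongest Fas site of each of these 9 samples is shown because the sites fell close together.
spleen 1, chr19:34322249-34322252: ctgtatttttTTAAagttattttt
mass 2, chr19:34321843-34321846: gtaaatttttTTAAatgagatata
mass 3, chr19:34322617-34322620: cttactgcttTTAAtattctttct
mass 4, chr19:34319458-34319461: agcactttctTTAAaacaaattca
mass 5, chr19:34319431-34319434: agcactttctTTAAaacaaatgca
mass 6, chr19:34325792-34325795: catctctttcTTAAtgttagggaa
mass 7, chr19:34321892-34321895: taatggctttTTAAgtcatcaaag
mass 8, chr19:34322591-34322594: cctttatatgTTAAtgaccatgtc
mass 9, chr19:34321093-34321096: ttttatttaaTTAAggaaagcctg
Counted on the RefSeq transcript with 9 exons, the sites of masses 4 and 5 were in intron 7 and the other 7 in intron 8, upstream of the last exon, which encodes most of the death domain. The sites of masses 4 and 5 lay 27 bp apart, and their printed sequences differed at 1 of 24 bases. How reads were divided between such near copies was not tested.

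The number of insertions per sample did not separate spleens from masses. It was 4923 ± 3130 (SD, n = 6) in spleens and 5006 ± 2520 (SD, n = 9) in masses (two-sided exact permutation test over 5005 splits, p = 0.957). Spleen 1 had 10800 insertions, spleen 2 had 3515, spleen 3 had 6000, spleen 4 had 3787, spleen 5 had 2347 and spleen 6 had 3088. The masses lay between 757 in mass 4 and 9437 in mass 6, with a median of 4550, and thus spanned most of the range of the spleens. The reads behind these insertions numbered between 60551 and 5721832 per spleen and between 84981 and 277704 per mass. Apart from spleen 1, no spleen had more than 138833 reads. After every sample was reduced to the 60551 reads of the shallowest, the difference in mean insertions, spleens minus masses, was -295.9 (exact permutation p = 0.674). The tails held 4010 ± 1926 insertions (SD, n = 12).

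Reads were spread over more insertions in spleens than in masses on average, but within the variation between tumours. The 10 most covered insertions took 18.2% ± 6.54 of reads in spleens (SD, n = 6) and 34.7% ± 25.4 in masses (SD, n = 9), a difference of -16.5 percentage points (exact permutation p = 0.134, adjusted p = 0.403 over 9 sample measures). By sample, this share was 18.9%, 29.1%, 14.2%, 13.5%, 21.9% and 11.7% in spleens 1 to 6. In masses 1 to 9 it was 52.0%, 22.7%, 15.3%, 92.5%, 9.51%, 19.8%, 30.7%, 27.1% and 42.7%. Masses 1, 4, 7 and 9 lay above every spleen, whereas mass 5 lay below every spleen. Mass 4 also had the fewest insertions, and without mass 4 the difference was -9.27 points (exact permutation p = 0.172). In the tails the share was 4.0% ± 2.96 (SD, n = 12), with a highest value of 10.9%. Wilson 95% intervals of the read shares of single samples were at most 0.282 percentage points to either side. They take each read as an independent draw and leave out the spread between samples. Several PCR reads can stem from the same molecule and no molecular identifiers were used. The intervals can therefore be too narrow even for counting error.

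**Figure D1:**
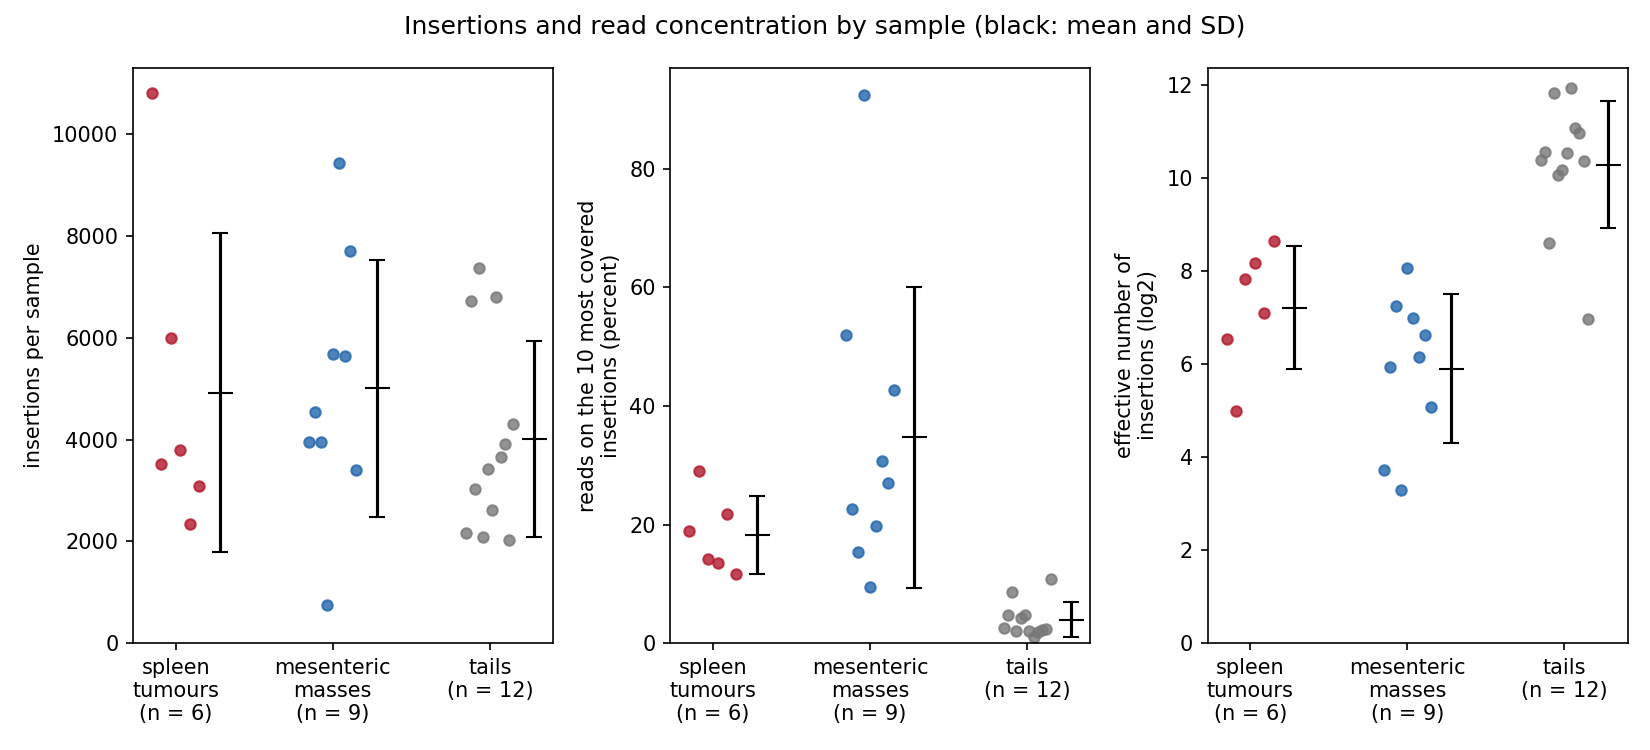
Insertions per sample, percent of reads on the 10 most covered insertions, and log2 of the effective number of insertions (the number of equally covered insertions with the same concentration) for 6 spleen tumours, 9 mesenteric masses and 12 tails. Points are samples and black marks the mean with its SD. Spleens and masses overlap in all panels, and the point at 92.5% is mass 4.

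The effective number of insertions, the inverse of the summed squared read shares, gave the same picture. Its log2 was 7.21 ± 1.32 in spleens (SD, n = 6) and 5.90 ± 1.60 in masses (SD, n = 9), with an exact permutation p of 0.120. In spleen 6 it took 393 insertions to reach 50% of the reads and in spleen 3 it took 603. In mass 4 it took 4 and in mass 1 it took 6. The other extreme among the masses was mass 3, with 483. The read concentration of a sample can depend on the share of tumour cells and the number of clones, among other things. These data cannot tell them apart, and none of them was tested.

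**Figure D2:**
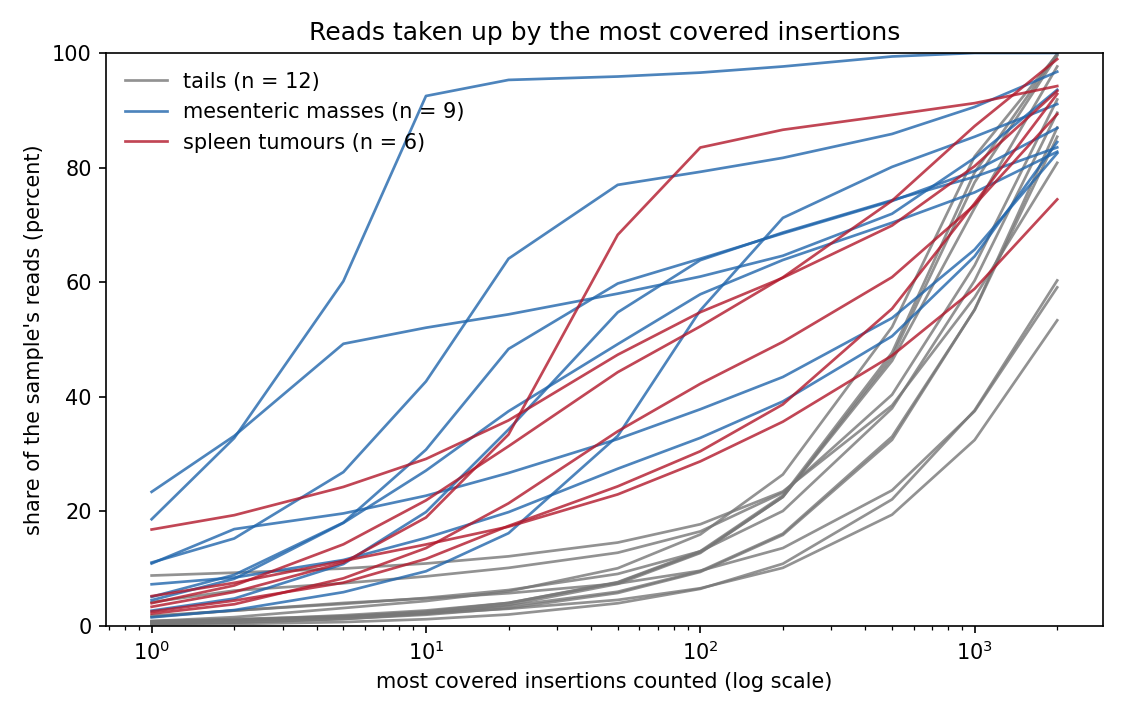
Cumulative share of a sample's reads (percent) against the number of most covered insertions counted (log axis), 1 line per sample for 6 spleen tumours, 9 mesenteric masses and 12 tails. The mass that rises fastest reaches 92.5% at 10 insertions, the spleen lines lie between 11.7% and 29.1% there, and no tail exceeds 10.9%.

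Of the remaining sample measures none passed the threshold. Insertions with at least 10 reads made up 58.5% ± 6.31 of insertions in spleens and 41.2% ± 23.2 in masses (exact permutation p = 0.101), where masses 5, 6 and 7 had only 19.2%, 10.5% and 18.0%. Insertions inside genes made up 58.0% ± 2.76 in spleens and 57.7% ± 1.95 in masses (exact permutation p = 0.772). Those within 5 kb of a start site made up 17.1% ± 1.33 and 17.3% ± 1.19 (exact permutation p = 0.675). Chromosome 14 held 12.8% ± 5.38 of autosomal insertions in spleens and 9.90% ± 3.48 in masses (exact permutation p = 0.230). The highest values among spleens were 19.9% in spleen 5 and 18.2% in spleen 6, whose names were written in a separated form that 2 of the masses (8 and 9) shared. The other 4 spleens and 7 masses had joined names, and whether the form marks a batch is not given in the sources used here. Spleens 5 and 6 also had no insertion in Ptprc, a difference that was not tested.

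Gene by gene, few differences between spleens and masses passed the threshold, which does not show that the other genes were alike. Of 1080 genes with at least 10 insertions, 2 were lower in spleens at an adjusted p below 0.05 (edgeR quasi-likelihood test, 0.185% of genes tested) and 0 were higher. At an unadjusted p below 0.05 there were 66 genes, of which 26 were higher in spleens. DESeq2, run with its own size factors and not with the insertion totals used for edgeR, called 0 genes. It had 22 at an unadjusted p below 0.05 and a smallest adjusted p of 0.248. A Fisher exact test of the number of samples with any insertion in a gene also called 0 of 4296 genes, with 97 at an unadjusted p below 0.05. Both calls were thus made by edgeR alone. In the simulation described below, edgeR found 39 of 100 genes lowered 8-fold in spleens and 99 of 100 raised. Lowered genes could therefore be missed.

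Ebf1 encodes a transcription factor required to specify the B cell lineage. The gene spans chr11:44618100-45008096 and holds 2397 TTAA. Spleens 1 to 6 had 7, 1, 0, 0, 0 and 1 insertions in Ebf1, and masses 1 to 9 had 5, 13, 6, 2, 5, 31, 14, 9 and 1. Masses 1 to 8 lay above every spleen per 1000 insertions of the sample, and only mass 9 overlapped with them. The density was 0.209 ± 0.262 per 1000 in spleens (SD, n = 6) and 1.82 ± 1.02 in masses (SD, n = 9), a log2 fold change of -2.59 ± 0.52 (SE, edgeR adjusted p = 2.96e-04). An exact permutation test of the density gave an unadjusted p of 0.0030. It was run after Ebf1 had been called on the same samples, so it is not separate support. Spleen 1 held 7 of the 9 insertions of spleens, and without it the log2 fold change was -3.77 (edgeR adjusted p = 9.02e-05). The call held with edgeR when any of the 15 samples was left out, within joined names (log2 fold change -2.72, adjusted p = 2.78e-04) and among insertions of at least 10 reads (-2.83, adjusted p = 0.0049). It did not pass with DESeq2 (-2.68, adjusted p = 0.248). Within separated names the spleens had 0 and 1 insertions and the masses 9 and 1. The tails had 0.540 ± 0.475 per 1000 (SD, n = 12) and the other 15 PB tumours 1.34 ± 1.35 (SD, n = 15). Against these other tumours, in a fit of all 30 that shares the 6 spleens with the comparison above, Ebf1 was lower in spleens (-2.27 ± 0.52, edgeR adjusted p = 0.0377, 0.0381% of 2627 genes called), and for masses the value was +0.33 ± 0.33 (adjusted p = 0.971).

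Insertions in Ebf1 were intronic in all spleens and masses. In masses they covered the gene from 5.89 to 384.8 kb after its start, at 84 positions for 86 insertions, with 41 on the strand of the gene and 45 on the opposite strand. The 9 insertions of spleens, 5 of them on the strand of the gene, fell between 5.06 and 346.7 kb. In 5 of 9 masses and 1 of 6 spleens at least 1 Ebf1 insertion was among the 50 most covered (Fisher exact p = 0.287, adjusted p = 0.645). The largest share was 2.87% of reads in mass 7. Spleen 1 and mass 8 shared 1 position, chr11:44623988-44623991, aatggttcatTTAAagaaaaataa, which took 1.42% of reads in spleen 1 and 1.65% in mass 8. It is shown because it was among the 50 most covered in both samples, although their animal codes differ. The position was also listed with 2 reads each in a PB cervical mass and in a PB tail. It was the only Ebf1 position found in both groups.

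Slamf1, which encodes the receptor CD150 on lymphocytes and haematopoietic stem cells, was the other gene called. It lies at chr1:171767132-171801184. Spleens had no insertion in it, and masses 1 to 9 had 1, 23, 4, 0, 0, 0, 5, 2 and 1. Mass 2 thus held 23 of 36 insertions, 5.05 per 1000, and masses 4, 5 and 6 were at 0 like the spleens. The log2 fold change was -5.15 ± 0.96 (SE, edgeR adjusted p = 9.44e-05), a value that depends on edgeR's prior count because the spleens were at 0. With 3 insertions over all spleens as a floor, the density pooled over samples was 7.87-fold lower in spleens. This ratio leaves out the spread between tumours and includes the 23 insertions of mass 2. Mass 2 decided the call: without it the log2 fold change was -3.84 (edgeR adjusted p = 0.142), and the exact permutation test of the density over all samples gave p = 0.175. The insertions of mass 2 included 5 of its 50 most covered insertions, with at most 0.451% of reads each. In the other 15 PB tumours the density was 0.206 ± 0.273 per 1000, and in a fit that shares the masses with the comparison above Slamf1 was higher in masses than in them (log2 fold change 2.10 ± 0.48, edgeR adjusted p = 0.0270). A count of 0 allowed up to 0.278 insertions per 1000 in spleen 1 and up to 3.96 in mass 4, so single samples could not show the absence of insertions in a gene of this size.

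**Figure D3:**
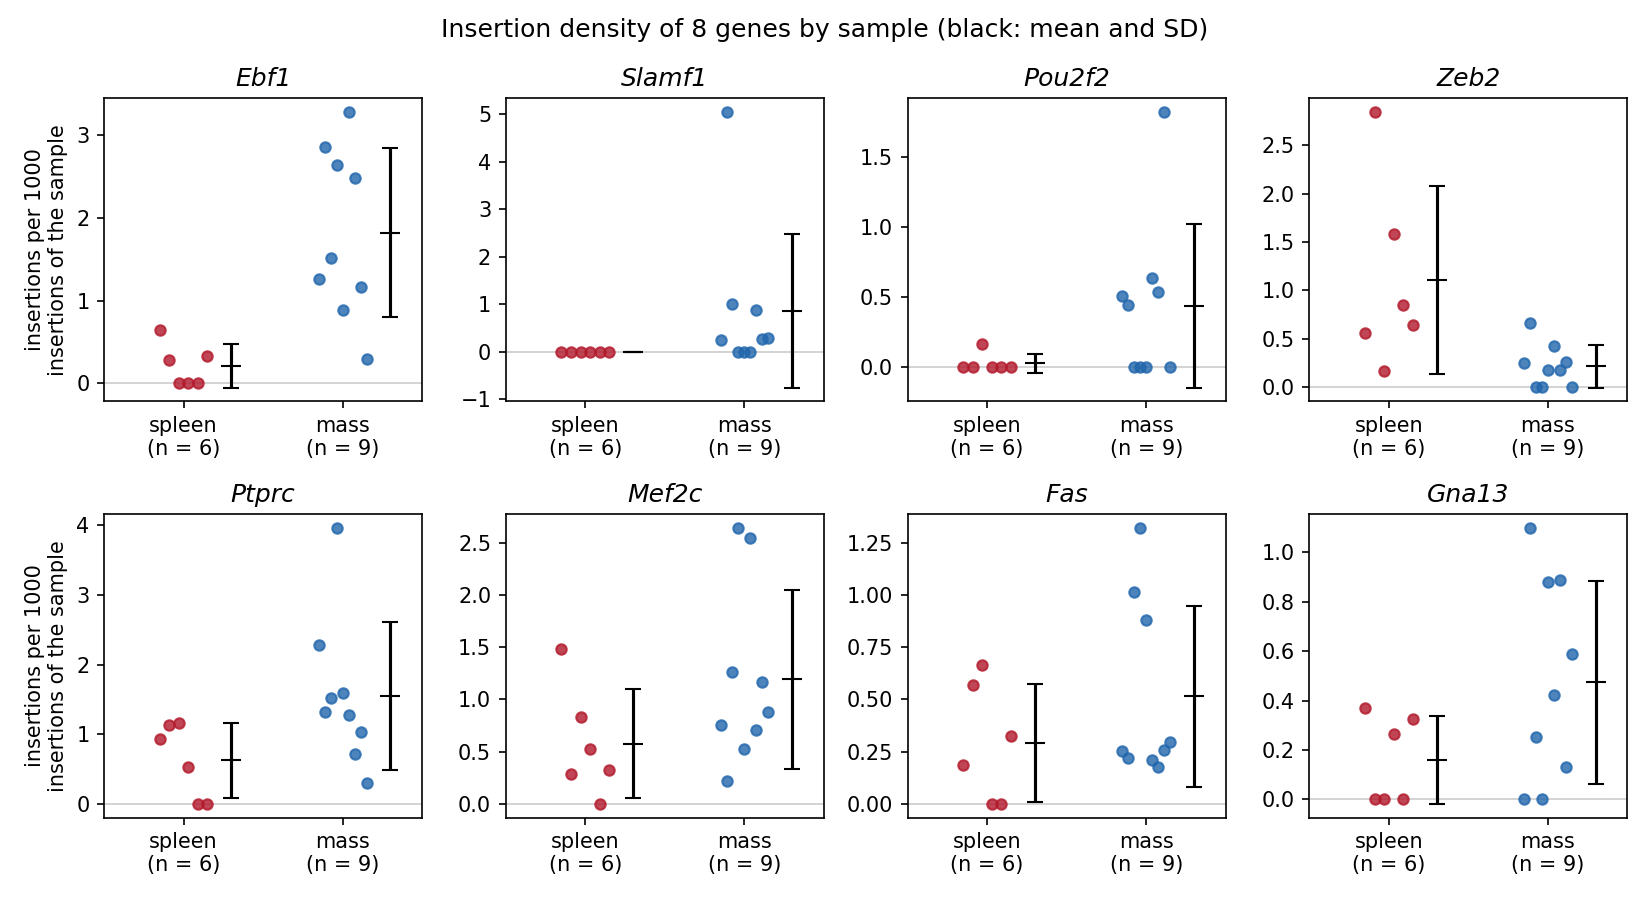
Insertions per 1000 insertions of the sample in 8 genes, for 6 spleen tumours and 9 mesenteric masses. Points are samples and black marks the mean with its SD. Ebf1 is higher in 8 of 9 masses than in any spleen, the Slamf1 mean of masses is carried by mass 2 at 5.05, and the other genes overlap.

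The genes with the next smallest p among those lower in spleens did not pass the adjusted threshold with all samples and at least 10 insertions per gene. Pou2f2, which encodes the octamer-binding factor Oct-2 of B cells, had 1 insertion in spleen 3 and 0 in the other spleens. The masses had 2, 2, 0, 0, 0, 6, 3, 14 and 0, so that 4 masses were at 0 like most spleens (log2 fold change -3.30 ± 0.88, edgeR adjusted p = 0.066). With edgeR it did pass among genes of at least 20 insertions (adjusted p = 0.0252) and without spleen 3 (0.0147), mass 3 (0.0331), mass 5 (0.0180) or mass 9 (0.0349). Dusp10, a phosphatase of stress-activated kinases, had 0 insertions in spleens and 11 in 5 masses (adjusted p = 0.298 with edgeR). Kynu, the enzyme kynureninase, had 0 in spleens and 10 in 7 masses (edgeR adjusted p = 0.305). Tmem131 had 5 and 36, of which 12 were in mass 8 (edgeR adjusted p = 0.298).

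Among genes with more insertions in spleens, Zeb2, a zinc finger repressor active in several blood lineages, had the smallest p. Spleens 1 to 6 had 6, 10, 1, 6, 2 and 2 insertions and masses 1 to 9 had 1, 3, 0, 0, 1, 4, 1, 2 and 0. All 6 spleens and 6 of 9 masses were hit, and the density was 1.11 ± 0.971 against 0.217 ± 0.220 per 1000 (log2 fold change 1.86 ± 0.56, edgeR adjusted p = 0.244). It passed the threshold only when spleen 3 was left out (edgeR adjusted p = 0.0450). Spleen 2 held 3 Zeb2 insertions among its 50 most covered, with up to 0.673% of reads. Tails had 0.305 ± 0.216 per 1000. Psd3, an exchange factor for a small GTPase, was hit in 6 of 6 spleens and 5 of 9 masses, with 17 and 6 insertions (log2 fold change 2.03 ± 0.69, edgeR adjusted p = 0.348). Nr3c2, the mineralocorticoid receptor, had 9 insertions in 4 spleens and 1 in 1 mass (edgeR adjusted p = 0.298). Bach2, a repressor that guides B cell differentiation, had 9 and 2 (edgeR adjusted p = 0.628). Prkar2b, a regulatory subunit of protein kinase A, and Nt5c2, a cytosolic nucleotidase, each had 10 in spleens and 3 in masses (edgeR adjusted p = 0.729 and 0.746).

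Among the genes with the most insertions over the 15 samples, Ebf1, described above, was called, and the others described here were hit at both sites without a call. Zbtb20 held 42 insertions in spleens and 68 in masses (log2 fold change -0.13 ± 0.40, edgeR), Lpp held 29 and 43 (-0.05 ± 0.47), and Elmo1, which acts with DOCK proteins in migration, held 25 and 43 (-0.27 ± 0.47). Zcchc7 held 24 and 43 (-0.17 ± 0.47). Mef2c, a transcription factor of B cells, held 25 and 54, with 16 of 25 in spleen 1 (-0.59 ± 0.46, edgeR adjusted p = 0.876). Ptprc, which encodes the leukocyte phosphatase CD45, had 10, 4, 7, 2, 0 and 0 insertions in spleens 1 to 6 and between 1 and 12 in all 9 masses (-0.84 ± 0.46, edgeR adjusted p = 0.858). In tails Ptprc had 1 insertion and Zbtb20 had 47.

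The most covered insertions were compared by presence. A gene was counted for a sample if it held at least 1 of the sample's 50 most covered insertions, and 9 genes were so counted in at least 3 of the 15 samples. Of these, 2 passed a Fisher exact test after adjustment, which is 22.2% of the genes tested. Fas was counted in 1 of 6 spleens and 8 of 9 masses (p = 0.0110, adjusted p = 0.0495, Fisher exact test). It was also counted in 10 of the other 15 PB tumours and 0 of 12 tails. The call was at the edge of the threshold: the number of genes called was between 0 and 2 when single samples were left out, 0 within joined names and 0 when genes were extended by 10 kb.

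By read share, Fas took 1.65% of reads in spleen 1, 0.207% in spleen 2, 0.0909% in spleen 3 and 0.00661% in spleen 6, and spleens 4 and 5 had no Fas insertion. Masses 2 to 9 had 6.01%, 8.22%, 14.2%, 1.16%, 1.31%, 2.96%, 3.65% and 1.53%, and mass 1 had 0.000720%. Only spleen 1 lay within the range of masses 2 to 9, the masses in which Fas was counted above. Mass 1 lay below spleens 1, 2, 3 and 6, so the read shares of spleens and masses overlapped. In numbers of insertions, Fas had 9 in 4 spleens and 18 in 9 masses (log2 fold change -0.40 ± 0.65, edgeR adjusted p = 0.938). In intron 8, all 8 insertions of masses and all 5 of spleens were on the strand of the gene. In intron 7, all 4 insertions, which were of masses, were on the opposite strand.

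**Figure D4:**
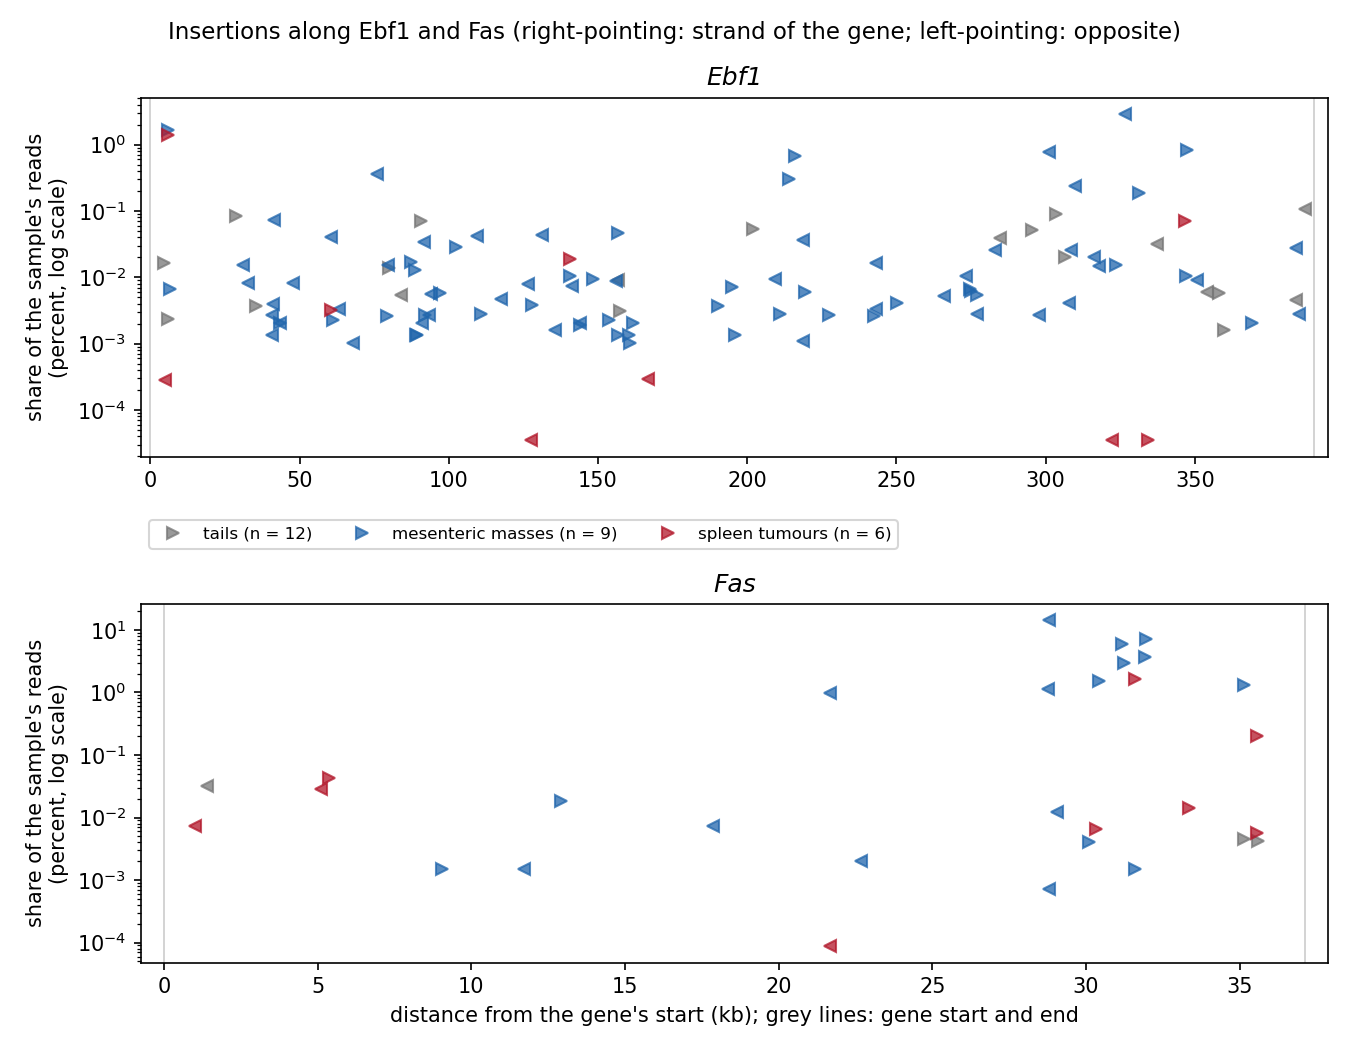
Share of the sample's reads (percent, log axis) of each insertion against its distance in kb from the start of Ebf1 and of Fas, for spleen tumours, mesenteric masses and tails. Right-pointing marks are on the strand of the gene and left-pointing marks on the opposite strand. Ebf1 insertions of masses cover the whole gene, whereas Fas insertions above 1% of reads lie between 28.8 and 35.1 kb.

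Gna13, a G protein subunit that helps to confine B cells to germinal centres, was among the 50 most covered insertions of masses 2, 5, 6, 7 and 9 and of no spleen (Fisher exact p = 0.0440, adjusted p = 0.132). It gave the leading insertion of mass 2 (10.9% of reads) and of mass 9 (11.0%). Spleens 1, 4 and 6 did carry Gna13 insertions, 6 in all, but with at most 0.102% of reads. In numbers of insertions the log2 fold change was -1.30 ± 0.68 (edgeR adjusted p = 0.851), and Gna13 was counted in 9 of the other 15 PB tumours. Rel, an NF-kB subunit, was counted in 1 spleen and 2 masses and gave the leading insertion of mass 6 (2.62% of reads). It had 1 insertion in spleens and 11 in masses (-2.24 ± 0.97, edgeR adjusted p = 0.767). The leading insertion of mass 7 lay outside genes and took 5.03% of reads. Asxl2, Rasa1 and Akap13 were each counted in 1 spleen and 2 masses, and Ptprc in 2 spleens and 1 mass.

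The positions of the most covered insertions were found again in other samples more often for masses. Of the 60 most covered insertions of spleens, 10 per sample, 9 were at a position that another PB sample also held, with at most 0.462% of that sample's reads. Of 90 in masses it was 35, with at most 2.99%. The difference was not tested, and no share over all insertions was set beside it. Matches included traces: the sites of rank 3 and 4 in mass 4 were found again only in spleen 1, with 2 and 3 reads. Spleen 1 was the most deeply read sample, with 5721832 reads. Whether such positions arose independently or through carry-over between libraries was not tested. In a gene were 50 of 60 and 64 of 90.

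Gene lists for lymphoma and for other tissues gave few calls. Each list is described by its genes tested, beside a median log2 fold change of 0.035 over all 1080 genes, 509 of them below 0. Of 25 B-lineage transcription factors, 15 were tested, and 1 was lower in spleens, Ebf1 (0 higher). The median log2 fold change of the 15 was -0.21. Summed over all 25 genes, Ebf1 included, the density was between 2.13 and 8.06 per 1000 in spleens (median 5.29). In masses it was between 5.89 and 11.3 (median 7.93). The tails reached at most 5.10. Ebf1 alone had a mean of 0.209 in spleens and 1.82 in masses, so the sums are not separate from its call. Foxp1, a member of the list with 32 insertions in spleens and 29 in masses, had a log2 fold change of 0.73 ± 0.47 (edgeR adjusted p = 0.876).

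No gene of the other 9 lists passed the threshold. For B-cell receptor signalling, 7 of 24 genes were tested (median log2 fold change 0.10), among them Lyn, a kinase of the receptor, with 12 and 14 insertions, and Inpp5d, the inositol phosphatase SHIP1, with 7 and 15. For homing, adhesion and migration it was 10 genes (-0.14), and Arhgap15 had 18 and 31 insertions. For Notch and marginal zone genes 7 were tested (0.01), with Maml2, a coactivator of Notch, at 16 and 19 and Fbxw7, which marks Notch for degradation, at 11 and 21. For the NF-kB pathway 4 were tested (-0.29), among them Traf3, a brake on the pathway, with 10 and 11. For death receptor, p53, cell cycle and survival genes 4 were tested (-0.15). Of these, Cdk6, a kinase of the cell cycle, had 17 insertions in 3 spleens and 10 in 7 masses (log2 fold change 1.18 ± 0.63, edgeR adjusted p = 0.852). Chromatin regulators had 15 genes tested with 10 above 0 (0.29), for example Kmt2c, a histone methyltransferase, with 18 and 15 and Arid1b, a subunit of a remodelling complex, with 18 and 19.

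**Figure D5:**
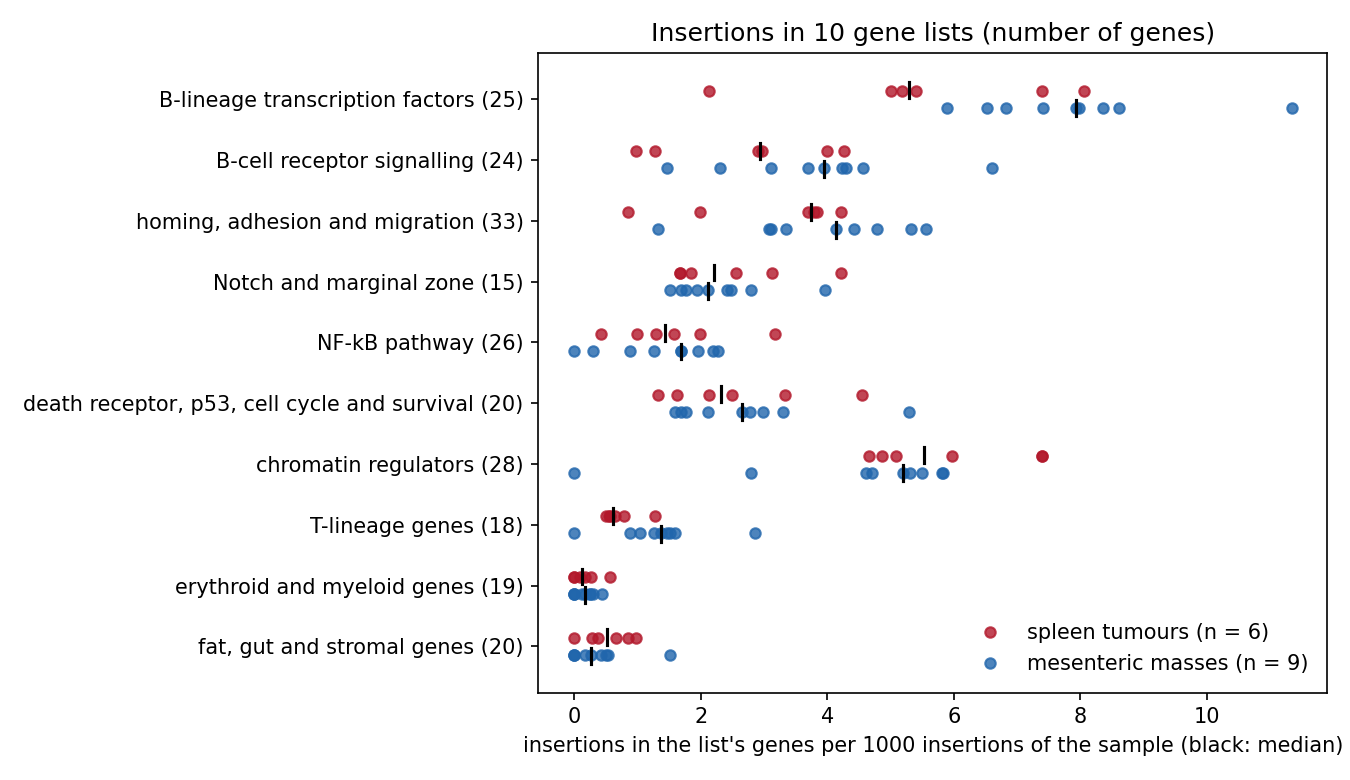
Summed insertions of 10 gene lists per 1000 insertions of the sample, with the number of genes in brackets, for 6 spleen tumours and 9 mesenteric masses. Points are samples and black bars are medians. The B-lineage factors reach 11.3 in masses and 8.06 in spleens, and the lists of erythroid and myeloid and of fat, gut and stromal genes stay at or below 1.52 at both sites. In tails, not shown, the medians of these lists were 3.21, 0.0736 and 0.484, in the same order. The sums are not scaled by the length of the genes or their number of TTAA.

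Lists of genes of other cell types held few insertions, in sums that were not scaled by gene length. Of 18 T-lineage genes, Tox alone was tested, with 15 insertions in 6 spleens and 45 in 8 masses (log2 fold change -0.87 ± 0.51, edgeR adjusted p = 0.876). The list's summed density was between 0.500 and 1.28 per 1000 in spleens and between 0 and 2.86 in masses. Of its 18 genes, 15 had no insertion in spleens and 9 had none in masses. Spleens held fewer insertions in all (29537 against 45050), and the share of genes without an insertion over all genes was not set beside these counts. Of 19 erythroid and myeloid genes, 16 had none in spleens and 15 none in masses, with a summed density of at most 0.569 and 0.440. Of 20 fat, gut and stromal genes, 12 had none in spleens and 12 none in masses, with at most 0.972 and 1.52. Insertions in DNA do not measure which cells are present, and the part of other cells in the comparisons was not tested.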

How the data were processed

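Transposon insertions of 6 PB spleen tumours and 9 PB mesenteric masses were compared, with 12 PB tails beside them. The authors deposited raw read counts per insertion position and strand, not normalized (385883 lines, at least 2 reads each), from splinkerette PCR and 75 bp paired-end sequencing, on mm10. The aligner, insertion caller and read filters are not given in the sources used here, and a further per-sample column (1 column, reads divided by the sample's maximum) was not used. Of the 85813 lines of these samples, 99.1% lay on a TTAA, 45 were moved to a TTAA within 5 bp and 755 had none. Insertions at the same TTAA of a sample were merged. Genes were the spans of RefSeq transcripts (23986 genes).

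Sample measures were compared by two-sided exact permutation tests (5005 splits, smallest p 0.0001998) with Benjamini-Hochberg adjustment over 9 measures. Insertions per gene and sample were tested with edgeR's quasi-likelihood test on genes with at least 10 insertions, with the sample's total of insertions as library size, and genes of the 50 most covered insertions by Fisher's exact test where at least 3 samples held them. Replicate numbers follow accession order and samples were taken as separate animals by their codes. The permutation and edgeR p-values set group differences against the spread between these samples, and edgeR shares part of its estimate of spread across genes. Fisher's test uses only the number of samples with an insertion. Named genes were every gene called, the 6 with the smallest edgeR p in each direction, the 8 with the most insertions, those of each sample's leading insertion, those among the 10 most covered insertions of at least 3 samples, and up to 3 per gene list (10 lists). Other genes were named after their values were seen. Members, lists and tests were chosen with earlier results of these data known. A gene that these rules select is not reported here, nor are insertions in it, although all counts, tests and list sums include it. Alternatives covered the filters, the normalization, DESeq2, the read minimum, the name form and leaving out each sample.

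The edgeR test was also run on simulated data with 1080 genes, of which 200 were changed 8-fold. It found 99 of 100 genes raised in spleens and 39 of 100 lowered genes, with 4 false calls. Lowered genes were thus found less often under the settings of this simulation. Whether the same holds for the genes of the real comparison was not tested. Python 3.11.15 (numpy 2.4.6, pandas 2.3.3, scipy 1.17.1, matplotlib 3.10.9) and R 4.3.3 (edgeR 4.0.16, DESeq2 1.42.0) were used.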

Additional observations from a re-analysis of the deposited data

Results flagged for a closer look

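Sample values that stood far from the rest of their group by Dixon's criterion, which marks about 1 in 20 groups by chance, were found in 6 of 26 sets examined. The reads on insertions of spleen 1 (5721832, against at most 138833 in another spleen) stood apart, as did the share of reads on the leading insertion of spleen 2 (16.8%) and the share of insertions on chromosome 14 in mass 4 (18.4%). The Slamf1 density of mass 2 (5.05 per 1000) stood apart among masses. The Pou2f2 density of spleen 3 (0.167 per 1000, from 1 insertion) stood apart among spleens, and that of mass 8 (1.82 per 1000) among masses.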

How the results depend on the processing

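No paired analysis was possible because replicate numbers follow accession order and name different animals at the 2 sites. The difference in insertions per sample (spleens minus masses, -82.7) changed sign with insertions of at least 10 reads (1054), with chromosome 14 kept (34.8), within joined names (1174.5) and on the log2 scale (0.025). It ranged from -1258 to 471.2 when single samples were left out, and none of these differences passed the threshold. Reads were less concentrated in spleens under all 24 alternatives to the share of the 10 most covered insertions, none past the threshold, with differences of -19.6 to -9.27 percentage points when single samples were left out. The number of genes called by edgeR (2) was 0 with DESeq2, 0 with Fisher's exact test of presence and 1 to 4 when single samples were left out. The low value of 1 came without mass 2, and the high value of 4 without spleen 3. The number of genes called among the most covered insertions (2) was 1 with the 10 most covered, 1 with the 100 most covered, 0 with genes extended by 10 kb, 0 within joined names, and 0 to 2 when single samples were left out. Leaving out any 1 of spleens 2 to 6 or masses 4 to 9 gave 0. Alternatives chosen after seeing the data were leaving out spleen 1 and mass 4 together, the log2 scale of the read share, the comparisons of genes within joined names and against the other PB tumours, the exact permutation test of called genes, and leaving out single samples for the most covered insertions. Samples of few insertions (757 in mass 4) could not show low densities, and reads of PCR copies give no number of cells.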
